A study of Arabidopsis thaliana with 18 samples.

Results

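The miR158 family of Arabidopsis thaliana was followed through small RNA libraries of rosette leaves that were challenged with the fungus Alternaria brassicicola. Its members are all the sequences that the deposited abundance table lists under the family line mir158. They number 10 of the 476 distinct sequences in the table, and 1 of its 101 families. It was chosen by its high share of the miRNA reads in RNA bound to the protein ARGONAUTE1 (AGO1), so its level in AGO1 libraries against total libraries is given as values without a test.

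All plants were of the Col-0 accession, 5 to 6 weeks old, grown on soil in high humidity at 22 °C with 8 h of light a day. Untreated plants, mock-treated plants and plants sprayed with spores of A. brassicicola strain MUCL 20297 were compared. The spray held 1000000 spores per ml and 0.01% Silwet L 77, a wetting agent, and leaves were taken on day 3. The make-up of the mock treatment, and the harvest day of mock and untreated plants, are not given in the sources used here. Each treatment gave 3 biological replicates of total small RNA and 3 of small RNA eluted from an AGO1 immunoprecipitate, 18 libraries in all. Total and AGO1 libraries came from different preparation protocols, so protocol and AGO1 binding cannot be told apart between them.

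A plant microRNA is cut from the stem of a hairpin transcript as a short duplex. One strand, the guide, is kept by an ARGONAUTE protein and directs it to RNAs of matching sequence, and the other strand is usually lost. AGO1 is the main ARGONAUTE for Arabidopsis microRNAs and is known to favour guides that begin with uridine. miR158 is a family of the mustard lineage, and its described targets in Arabidopsis include transcripts of the pentatricopeptide repeat (PPR) type, whose proteins mostly bind RNA in mitochondria and plastids. A. brassicicola is a necrotrophic fungus that causes black spot on brassicas.

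The 10 sequences come from 2 loci and differ mainly at their ends. MIR158a lies at chr3:3366331-3366430 on the minus strand and MIR158b at chr1:20772218-20772302 on the plus strand (TAIR10.1, RefSeq annotation). The sequences are shown because the results turn on which end a read lacks. T stands for U, and capitals mark bases 2 to 8 of each sequence, the seed.
miR158a-3p, 20 nt: tCCCAAATgtagacaaagca
miR158a-3p, 19 nt: tCCCAAATgtagacaaagc
miR158a-3p, 18 nt: tCCCAAATgtagacaaag
miR158b, 20 nt: cCCCAAATgtagacaaagca
miR158b, 19 nt: cCCCAAATgtagacaaagc
miR158b, 18 nt: cCCCAAATgtagacaaag
5'-trimmed by 1 base, 19 nt: cCCAAATGtagacaaagca
5'-trimmed by 1 base, 18 nt: cCCAAATGtagacaaagc
5'-trimmed by 2 bases, 18 nt: cCAAATGTagacaaagca
miR158a-5p, 21 nt: cTTTGTCTacaattttggaaa

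The products of both loci share their seed and differ at the first base, T1C, counted from the 5′ end of miR158a-3p. All 6 sequences with a full 5′ start on this strand therefore carry the same seed, and among them only the 3 from MIR158a begin with T. The 3 sequences trimmed at the 5′ end lack the base by which the loci differ, match both loci exactly and have a shifted seed. miR158a-5p comes from the opposite strand of the MIR158a hairpin. No miR158 sequence stood under another family.

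The hairpins are printed so that the place of each product can be seen, with the products in capitals.
MIR158a: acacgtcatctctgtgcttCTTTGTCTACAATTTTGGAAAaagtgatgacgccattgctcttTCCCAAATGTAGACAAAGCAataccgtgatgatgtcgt
MIR158b: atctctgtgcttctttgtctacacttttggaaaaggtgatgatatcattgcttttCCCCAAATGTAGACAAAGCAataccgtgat
In the MIR158a hairpin of 100 nt, miR158a-5p took positions 20 to 40 and miR158a-3p positions 63 to 82. In the MIR158b hairpin of 85 nt the product took positions 56 to 75. Folding predicted a minimum free energy of -39.7 kcal per mol for MIR158a and -28.9 kcal per mol for MIR158b, with 17 and 16 of the 20 bases of the product paired.

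The genome was searched for sites within 2 mismatches of miR158a-3p, since the family is known for PPR transcripts. The search found 5 sites, of which 2 were the MIR158 loci. The other 3 lay on the strand opposite to an annotated gene, so the gene's own strand is complementary to miR158, and RefSeq annotates all 3 genes as PPR-type. They are printed as the gene's strand, 5′ to 3′, with capitals at bases that differ from the perfect complement.
AT1G62860, chr1:23276584-23276603: tgctttgtctacatttggCa
AT1G64100, chr1:23792061-23792080: tTctttgtctacatttggCa
AT1G12615, chr1:4294438-4294457: tgctttgtctacattAgCga
AT1G62860 is annotated as a PPR pseudogene, and its site lies in exon sequence and differs by C2G. AT1G64100 encodes a PPR protein, and its site lies in coding sequence and differs by C2G and C19A. AT1G12615 is annotated as a PPR protein fragment, and its site, also coding, differs by C3G and A5T. Positions are counted from the 5′ end of miR158a-3p, whose base comes first. The sequence trimmed by 2 bases lacks position 2 and also matches the AT1G62860 site exactly. No RNA cleavage was measured here, and these matches are descriptions.

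Total libraries held 753927 to 3034481 miRNA reads and AGO1 libraries 10835770 to 20317660. No run lists a number below 15, and so as many as 28 reads may stand behind a 0 in a library of 2 runs. miRNAs made up 77.8% to 83.4% of genome-matched reads in AGO1 libraries and 2.53% to 13.2% in total libraries. The untreated total libraries were the lowest at 2.63% ± 0.114, with 8.54% ± 4.15 in mock and 9.56% ± 1.96 in Alternaria libraries (SD, n = 3). The part of this difference in the results was not tested, beyond a second scaling given for the family results that it changes. Tests of the level of single sequences are given relative to other miRNAs only, and the scale moves those levels too.

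miR158 took 7.84% of the pooled miRNA reads of total libraries, where it ranked 5 among families, and 18.6% of those of AGO1 libraries, where it ranked 2. As a share of miRNA reads, the total libraries held 5.71%, 7.03% and 8.10% (untreated), 7.25%, 4.65% and 8.71% (mock), and 6.29%, 7.62% and 10.96% (Alternaria). The AGO1 libraries held 23.8%, 20.9% and 17.6% (untreated), 14.2%, 19.4% and 16.9% (mock), and 18.1%, 19.5% and 16.1% (Alternaria). Every AGO1 library was above every total library, and within each library type the 3 treatments overlapped. The AGO1 mean was 2.99 times the total mean in untreated leaves, 2.44 times in mock leaves and 2.16 times in Alternaria leaves.

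**Figure D1:**
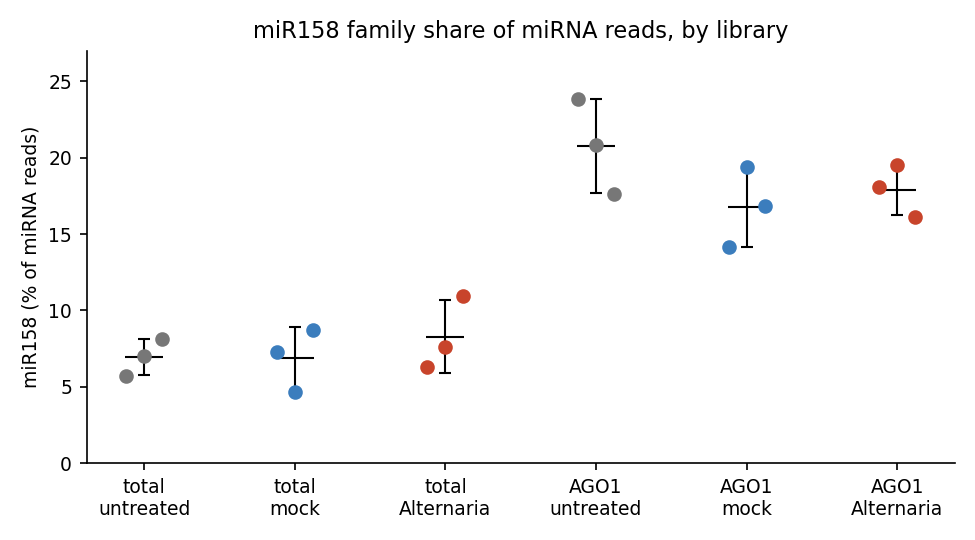
Share of miRNA reads taken by the miR158 family (percent) in each of the 18 libraries. Points are libraries, bars are the mean ± SD of 3 replicates; all AGO1 libraries (14.2% and above) lie above all total libraries (10.96% and below), and treatments overlap within each type.

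Among the 5 other families most abundant in AGO1 libraries, 2 took a larger share in AGO1 than in total libraries and 3 a smaller one. miR166, which targets HD-ZIP III transcription factor mRNAs, and miR165, which shares those targets, were the 2 with the larger share. miR166 took 16.04% of pooled miRNA reads in total and 59.4% in AGO1 libraries, and miR165 3.19% and 7.48%. miR159, which targets MYB mRNAs, took 8.17% and 5.84%, miR156, which targets SPL mRNAs, 7.16% and 5.47%, and its relative miR157 4.99% and 3.45%. These are shares of the same miRNA reads, so they are not independent of each other. miR165 and miR166 also share sequences, as do miR156 and miR157. A shared sequence counts in each family that lists it, so the 5 are not 5 separate sets of reads.

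A single sequence carried the family. The 20-nt miR158a-3p held 94.4% of the pooled miR158 reads in total libraries and 87.5% in AGO1 libraries. Its level in total libraries was 52185, 64859 and 74502 reads per 1000000 miRNA reads (RPM) in untreated leaves, 67433, 42648 and 80950 in mock and 61949, 71791 and 106292 in Alternaria leaves. In AGO1 libraries it was 193407, 177267 and 159006 (untreated), 126078, 165020 and 148855 (mock), and 166212, 178216 and 146384 (Alternaria). Treatments overlapped in both types, and the AGO1 mean over 9 libraries was 2.35 times the total mean.

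The form that lacks the last base, the 19-nt miR158a-3p, was second. It held 5.14% of pooled miR158 reads in total libraries and 11.9% in AGO1 libraries, and its mean level was 5.16 times higher in AGO1 libraries. Its levels in total libraries were 4623, 5214 and 6164 RPM (untreated), 4722, 3559 and 5761 (mock), and 641, 4023 and 2832 (Alternaria). The Alternaria libraries lay below all untreated ones and overlapped the mock ones, and Alternaria replicate 1 was the lowest. In AGO1 libraries the levels were 43427, 30115 and 16188 (untreated), 14573, 27598 and 18633 (mock), and 13534, 15563 and 13925 (Alternaria). Here too the Alternaria libraries lay below all untreated ones and overlapped the mock ones, with untreated replicate 1 the highest.

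The sequence of the MIR158b product, the minor locus, was listed in every library at a small and steady fraction of miR158a. It differs from the far more abundant miR158a-3p at the first base alone, and whether its reads are independent of those of miR158a-3p was not tested. The 20-nt miR158b had 143, 143 and 185 RPM in untreated total libraries, 161, 118 and 186 in mock and 176, 169 and 239 in Alternaria libraries. In AGO1 libraries it had 651, 566 and 530 (untreated), 475, 555 and 542 (mock), and 599, 635 and 567 (Alternaria). For every 1000 reads of the 20-nt miR158a-3p there were 2.21 to 2.84 reads of miR158b in total libraries and 3.19 to 3.87 in AGO1 libraries, with no overlap between the library types. miR158b, which begins with C, was thus listed at 3.37 times its total mean in AGO1 libraries, and the 20-nt miR158a-3p, which begins with T, at 2.35 times.

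The opposite strand went the other way. miR158a-5p, the passenger strand of the MIR158a duplex, had 25.2 to 113 RPM in total libraries and 12.9 to 21.5 in AGO1 libraries, a mean ratio of 0.243. It made up 0.0358% to 0.125% of miR158 reads in total and 0.00724% to 0.0109% in AGO1 libraries. The numbers behind the total libraries were small, with 19 to 341 reads a library.

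The remaining 6 sequences were shortened forms that together held under 1% of the family in either library type. Of these, the 18-nt miR158a-3p was listed in 8 total and 9 AGO1 libraries and the form trimmed by 2 bases at the 5′ end in all 18. The 19-nt form trimmed by 1 base at the 5′ end was listed in 6 total libraries, and the 19-nt miR158b in 2. The 18-nt form trimmed by 1 base was listed in no total library and in all 9 AGO1 libraries, at 4.80 to 24.9 RPM. The 18-nt miR158b was listed in AGO1 untreated replicate 1 alone, with 43 reads. A form listed at 0 in a total library may still have had reads below the listing minimum. By length, 20-nt reads made up 94.6% of miR158 in total and 87.8% in AGO1 libraries, 19-nt reads 5.16% and 11.98%, 18-nt reads 0.0988% and 0.206%, and the 21-nt strand 0.103% and 0.00917%.

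**Figure D2:**
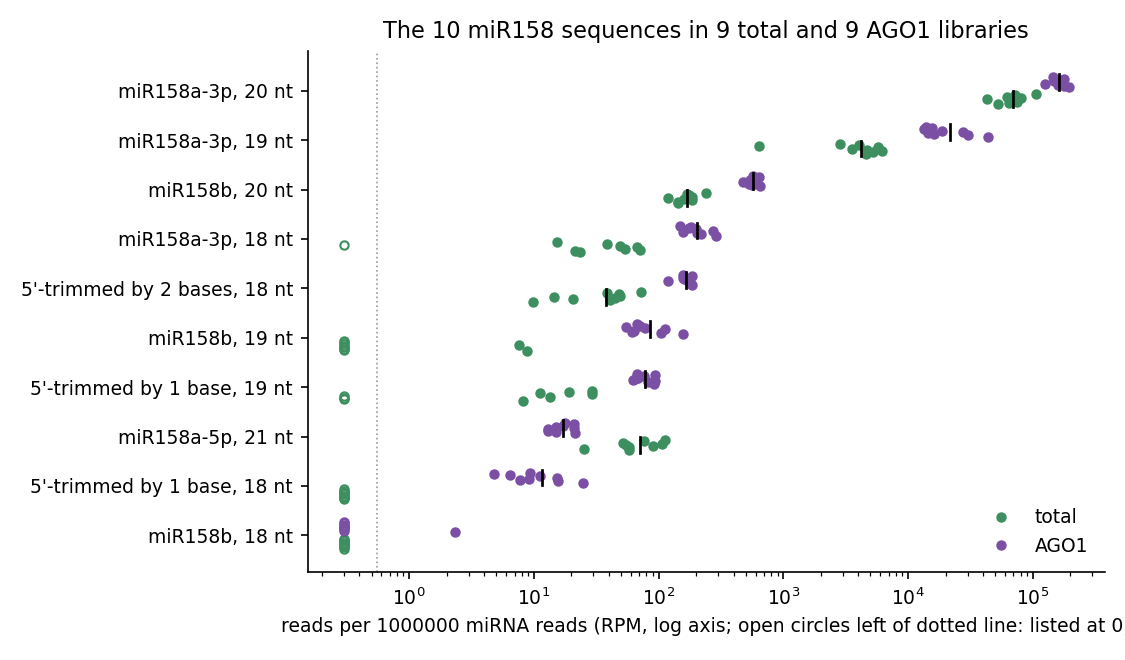
Level of each of the 10 miR158 sequences in RPM (log axis), in 9 total (green) and 9 AGO1 (purple) libraries. Points are libraries, black ticks are means where all 9 libraries list the sequence, and open circles are libraries listed at 0; miR158a-5p is the 1 sequence whose AGO1 libraries all lie below its total libraries.

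The question the treatments address is whether leaves change their miRNAs after Alternaria, and whether AGO1-bound miRNAs change with them. For the miR158 family no change relative to other miRNAs passed the test. In total libraries the log2 change was 0.37 (SE 0.25, adjusted p = 0.400) for Alternaria against mock, 0.30 (SE 0.25, adjusted p = 0.387) for Alternaria against untreated, and -0.08 (SE 0.25, adjusted p = 0.867) for mock against untreated. In the same comparisons 6.49%, 24.7% and 5.19% of the 77 families tested were called at an adjusted p under 0.05, with limma. In AGO1 libraries the log2 change was 0.33 (SE 0.24, adjusted p = 0.531), -0.21 (SE 0.24, adjusted p = 0.639) and -0.54 (SE 0.24, adjusted p = 0.637) in the same order, where 5.06%, 8.86% and 0% of 79 families were called. For mock against untreated in AGO1 libraries, 5 families, miR158 among them, had an unadjusted p under 0.05, and limma-voom also called 0.

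The difference between the change in AGO1 libraries and that in total libraries was tested directly, and relative to other miRNAs none passed. The AGO1 change minus the total change of the family was 0.01 (SE 0.38, adjusted p = 0.989) for Alternaria against mock, -0.59 (SE 0.38, adjusted p = 0.310) for Alternaria against untreated and -0.60 (SE 0.38, adjusted p = 0.444) for mock against untreated. Of the 95 families tested, 0%, 14.7% and 1.05% were called. In the first of these comparisons, 7 families had an unadjusted p under 0.05 and limma-voom called 0.

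These changes are relative to other miRNAs, and the scale decides the calls against untreated leaves in total libraries and in the AGO1 change minus the total change. Per 1000000 genome-matched reads, miR158 had 1822 ± 272 reads in untreated, 6224 ± 4602 in mock and 8239 ± 4075 in Alternaria total libraries (SD, n = 3). On that scale the log2 change was 2.07 (adjusted p = 2.28e-05) for Alternaria against untreated and 1.54 (adjusted p = 0.00243) for mock against untreated. The AGO1 change minus the total change was then also called, at -2.30 (adjusted p = 0.000677) for Alternaria against untreated and -1.86 (adjusted p = 0.0107) for mock against untreated. The median of all 77 families moved from 0.35 to 1.80 and from 0.21 to 1.40 in these comparisons with the change of scale, so the scale moved families in general and not miR158 alone. For Alternaria against untreated total libraries, the median of all 296 sequences tested moved from 0.36 to 1.49 and the number called from 63 to 203. The tests of single sequences below are relative to other miRNAs. Fewer cells that hold a miRNA and less of it per cell cannot be told apart in leaf RNA.

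The authors' deposited table gave miR158 in total libraries a log2 fold change of 0.27 (adjusted p = 0.965) from mock to Alternaria, 0.24 (adjusted p = 0.661) from untreated to Alternaria and 0.04 (adjusted p = 0.959) from untreated to mock. For AGO1 libraries the authors' deposited table gave -0.53 (adjusted p = 1) from untreated to mock, and those for Alternaria do not list the family. They list only 5 families against mock and 6 against untreated, where the other deposited comparisons list 101. For AGO1 against total libraries, the authors' log2 fold changes of miR158 were 3.44 in untreated, 3.14 in mock and 2.97 in Alternaria leaves. Each is a larger difference than the ratio of shares of miRNA reads given above.

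Among the single sequences, the 19-nt miR158a-3p, the form without its last base, was the 1 member that passed the test. Relative to other miRNAs, it was lower after Alternaria than in untreated leaves. Its log2 change in total libraries was -1.52 (SE 0.49, adjusted p = 0.0436) for Alternaria against untreated, -1.26 (SE 0.49, adjusted p = 0.210) for Alternaria against mock and -0.25 (SE 0.49, adjusted p = 0.839) for mock against untreated. In the first comparison 7 of the 10 members were tested and 1 was called lower, beside which 10.1% of all 296 sequences tested were called lower and 21.3% in either direction, so the members' share was near the background. For Alternaria against mock 1.69% of the 296 sequences were called, and for mock against untreated 0%, with 47 at an unadjusted p under 0.05 and 12 called by limma-voom. The call was lost without any of the 3 untreated libraries or without Alternaria replicate 1 or 3 (adjusted p from 0.0888 to 0.160), and without Alternaria replicate 1 the log2 change was -0.67. Against mock, the change was called without Alternaria replicate 2, at -1.74 (adjusted p = 0.0243), and was -0.57 (adjusted p = 0.396) without Alternaria replicate 1. Scaling to plain totals of miRNA reads gave an adjusted p of 0.0595, and testing without a filter on low counts gave 0.0728. Untreated total libraries held 8437, 3931 and 4775 reads of this form among 66209731, 29772154 and 29713149 genome-matched reads. Alternaria total libraries held 1082, 8616 and 8517 among 21763945, 23069948 and 25810400. Per genome-matched read, Alternaria replicates 2 and 3 thus lay above all untreated libraries and replicate 1 below them, so the fall depends on the scale.

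In AGO1 libraries 0 of 9 members tested were called in any comparison, by limma or limma-voom. For Alternaria against untreated, 2 of them had an unadjusted p under 0.05 (limma), beside 68 of all 267 sequences tested, so the members' share was near the background. For the 19-nt miR158a-3p the log2 change was -0.86 (SE 0.35, adjusted p = 0.154) for Alternaria against untreated, -0.31 (SE 0.35, adjusted p = 0.770) for Alternaria against mock and -0.55 (SE 0.35, adjusted p = 0.808) for mock against untreated. Of all 267 sequences 5.99%, 4.12% and 0% were called in these comparisons, the last with 16 at an unadjusted p under 0.05 and 0 called by limma-voom. Without AGO1 untreated replicate 3, which had the lowest 19-nt level of its group, 3 members were called lower than untreated after Alternaria: the 19-nt miR158a-3p at -1.38 (adjusted p = 0.00218), the 19-nt miR158b at -1.05 (adjusted p = 0.0290) and the 18-nt form trimmed by 1 base at -1.48 (adjusted p = 0.0151). All 3 end 1 base short of the full 3′ end, and the 18-nt form matches both loci. The share of all sequences called in that setting is not given here. Without AGO1 untreated replicate 3, the 19-nt miR158a-3p was also called lower in mock than in untreated leaves, at -1.03 (adjusted p = 0.0358). With any other library left out, no member was called in AGO1 libraries. Without AGO1 untreated replicate 1, the log2 change of the 19-nt miR158a-3p was -0.38 (adjusted p = 0.536) for Alternaria against untreated and -0.06 (adjusted p = 0.986) for mock against untreated.

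Relative to other miRNAs, the 20-nt forms showed no call in either library type. The family, most of whose reads are the 20-nt miR158a-3p, was called against untreated total libraries per genome-matched read, as given above. The 20-nt miR158a-3p had log2 changes of 0.32 (SE 0.27), 0.23 (SE 0.27) and -0.08 (SE 0.27) in total libraries for Alternaria against mock, Alternaria against untreated and mock against untreated. In AGO1 libraries its changes were 0.30 (SE 0.24), -0.02 (SE 0.24) and -0.32 (SE 0.24). Adjusted p-values for it ran from 0.573 to 0.987. The 20-nt miR158b, from the other locus, had changes of 0.31 (SE 0.32), 0.23 (SE 0.32) and -0.08 (SE 0.32) in total libraries and 0.34 (SE 0.26), 0.14 (SE 0.26) and -0.20 (SE 0.26) in AGO1 libraries. In each comparison the values of these 2 sequences lay within 1 SE of each other, though whether their reads are independent was not tested. miR158a-5p had changes of -0.10 (SE 0.53), 0.72 (SE 0.53) and 0.82 (SE 0.53) in total and 0.34 (SE 0.29), 0.27 (SE 0.29) and -0.06 (SE 0.29) in AGO1 libraries.

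**Figure D3:**
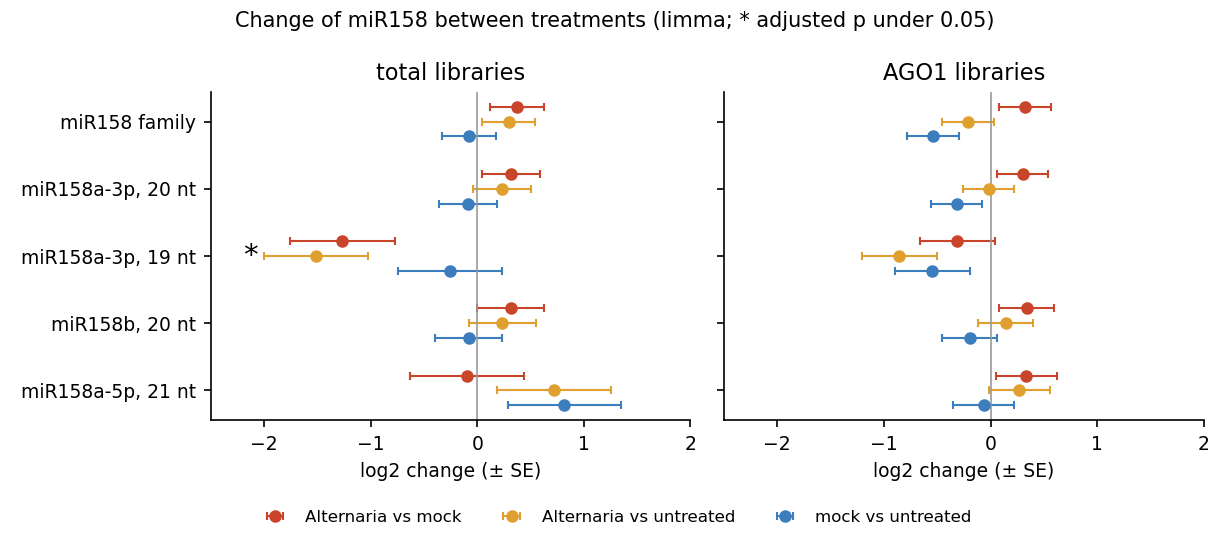
Log2 change ± SE (limma), relative to other miRNAs, of the miR158 family and its 4 main sequences for the 3 pairs of treatments, in total (left) and AGO1 (right) libraries. The asterisk marks the 1 value with an adjusted p under 0.05, the 19-nt miR158a-3p at -1.52; the 20-nt forms of both loci lie close to each other.

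Within the family, the balance between the 20-nt and 19-nt forms differed over the 3 treatments in total libraries, by a test sensitive to single libraries. The 20-nt miR158a-3p held 91.5%, 92.3% and 92.0% of miR158 reads in untreated total libraries, 93.0%, 91.8% and 92.9% in mock and 98.5%, 94.3% and 97.0% in Alternaria libraries. The Alternaria libraries lay above all others, and mock and untreated overlapped. This share needs no scaling between libraries. An exact permutation test over all assignments of the 9 libraries to 3 groups of 3 gave an F of 11.1 (p = 0.0107, adjusted p = 0.0214 over the 2 library types). The call held without each Alternaria library in turn and was lost without any 1 of the 6 other libraries (adjusted p from 0.0786 to 0.0857, permutation test).

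In pairs of treatments, 3 libraries against 3 can give no p below 0.1. The share was 4.03 percentage points higher in Alternaria than in mock total libraries and 4.70 points higher than in untreated ones, each at that smallest p (exact two-sided permutation test, adjusted p = 0.15). Mock and untreated total libraries differed by 0.66 points (exact permutation p = 0.3, adjusted p = 0.36).

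AGO1 libraries showed the same order of treatments without passing the test. The 20-nt form held 81.2%, 85.0% and 90.2% of miR158 reads in untreated AGO1 libraries, 89.1%, 85.1% and 88.3% in mock and 91.9%, 91.4% and 90.7% in Alternaria libraries. Every Alternaria library was above every other library. Over the 3 treatments the exact permutation test gave an F of 3.19 (p = 0.0857, adjusted p = 0.0857), and without untreated replicate 3 an F of 12.4 (adjusted p = 0.0143). That library had the highest 20-nt share of its group. With any other library left out, the same permutation test gave an adjusted p from 0.114 to 0.229. Alternaria exceeded mock by 3.84 points and untreated by 5.89 points, each at the smallest p of 0.1 (exact two-sided permutation test, adjusted p = 0.15), and mock exceeded untreated by 2.05 points (exact permutation p = 0.6).

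The 19-nt reads, as a share of 19-nt plus 20-nt reads of miR158a-3p, give the same balance from the other side. They were 7.74% ± 0.359 in untreated, 6.96% ± 0.642 in mock and 2.98% ± 2.17 in Alternaria total libraries, and 14.03% ± 4.57, 11.9% ± 2.10 and 8.08% ± 0.580 in AGO1 libraries (SD, n = 3). The spread was widest among Alternaria libraries in total RNA, from 1.02% to 5.31%, and among untreated libraries in AGO1 RNA, from 9.24% to 18.3%. miR158b, a separate locus with the same 3′ end, had 19-nt shares of 15.2% ± 4.60, 13.7% ± 2.67 and 9.66% ± 1.21 in untreated, mock and Alternaria AGO1 libraries. In every AGO1 library the miR158b share was above that of miR158a-3p, and the order of the 9 libraries was nearly the same. miR158b differs from miR158a-3p at the first base alone and is far scarcer. Whether its reads are independent of those of miR158a-3p was not tested. In total libraries the 19-nt miR158b was too scarce to read.

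**Figure D4:**
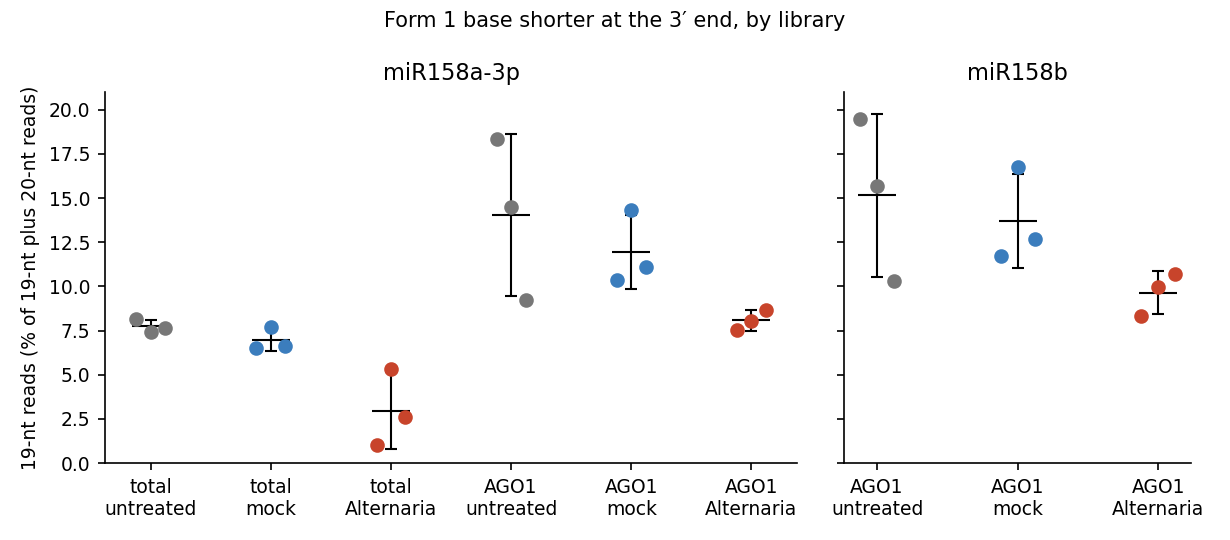
Reads of the 19-nt form as a percentage of 19-nt plus 20-nt reads, for miR158a-3p in all 6 groups (left) and for miR158b in AGO1 libraries (right). Points are libraries and bars the mean ± SD of 3 replicates; for miR158a-3p all Alternaria libraries (5.31% and below in total, 8.69% and below in AGO1) lie below all others of their type.

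Other miRNAs in the table also pair a main form with one that is 1 base shorter at the 3′ end, and these were listed after the miR158 values had been seen. With at least 1000 reads of the pair in every library and the longer form the more abundant, 33 pairs of other families qualified in total and 43 in AGO1 libraries. From untreated to Alternaria total libraries, the share of the shorter form was lower in 17 of the 33 pairs and higher in 14, with a median difference of -0.03 percentage points. The miR158a-3p pair differed by -4.76 points, and 2 other pairs had a lower difference. From mock to Alternaria miR158a-3p differed by -3.99 points, and 3 other pairs had a lower difference. In AGO1 libraries, from untreated to Alternaria, 28 of 43 pairs were lower and 13 higher. There miR158a-3p differed by -5.95 points, and 5 other pairs had a lower difference. A pair with a small share can move by few points, so log2 ratios of the shares are also given. In total libraries miR158a-3p had -1.38 from untreated and -1.23 from mock to Alternaria, against medians of -0.22 and -0.11. There 0 and 1 other pairs had a lower ratio. In AGO1 libraries, from untreated to Alternaria, it had -0.80 against a median of -0.29, and 8 other pairs had a lower ratio.

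**Figure D5:**
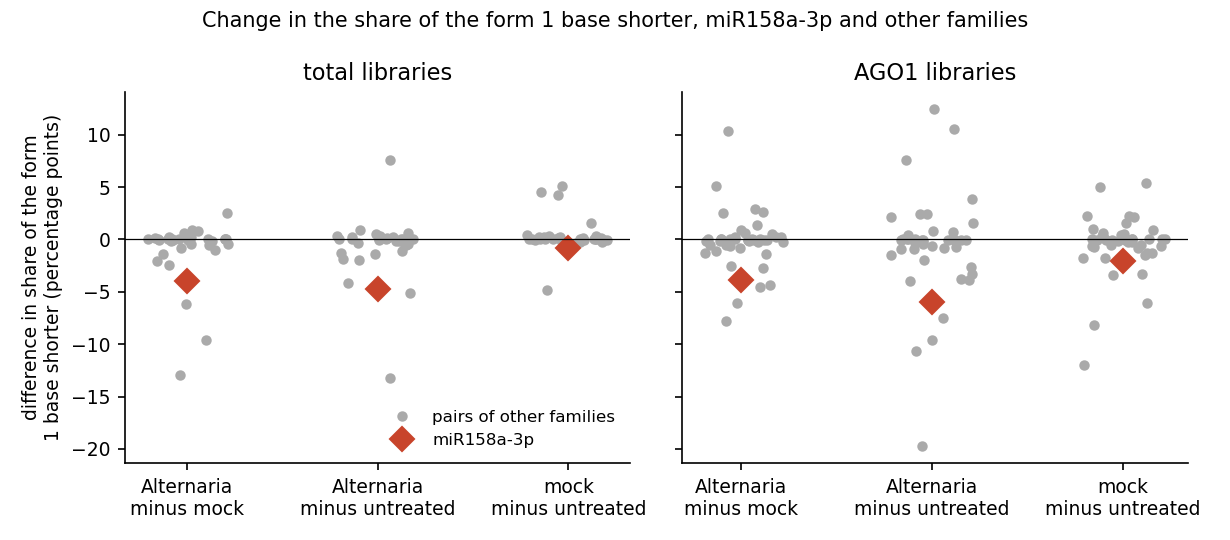
Difference between treatments in the share of the form 1 base shorter at the 3′ end (percentage points of the reads of both forms, group means), in total (left) and AGO1 (right) libraries. Grey points are pairs of other families and the red diamond is miR158a-3p, at -4.76 (total) and -5.95 (AGO1) for Alternaria minus untreated.

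Of 3 other miRNAs tied to PPR transcripts, miR161 and miR173 took a smaller share in AGO1 than in total libraries, and miR400 a larger one at a low level. miR161, which targets PPR mRNAs, took 3.30% of pooled miRNA reads in total and 1.93% in AGO1 libraries. miR173, which starts production of phased siRNAs from TAS transcripts that in turn reach PPR mRNAs, took 0.823% and 0.00776%. miR400, which also targets PPR mRNAs, took 0.00299% and 0.00935%. Of these 3 families, in 6 treatment comparisons, 1 call was made, for miR400 in total libraries from untreated to Alternaria (adjusted p = 0.0278). miR400 was listed at 0 in all 3 untreated total libraries and had 10.7 to 55.9 RPM in Alternaria ones. The call was thus made against a group listed at 0 throughout and depends on the listing minimum, and 24.7% of all 77 families were called in that comparison. In miRNA reads, 2 of the 3 untreated total libraries were the shallowest of all, with 753927 and 774674, and no fold is given.

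Families whose pattern over the libraries was most like that of miR158 were rare ones. Pearson's r of log2 levels, centred within each library type, was computed over 18 libraries for 51 other families with enough reads in every group. It was 0.60 for miR5026, 0.60 for miR824, which targets the MADS-box mRNA AGL16, and 0.57 for miR1886. The points share libraries, depth and scaling factors, so these values are a description. miR824 had 247 ± 23.6 RPM in untreated total libraries and 49.8 ± 2.62 in untreated AGO1 libraries (SD, n = 3), so it was lower in AGO1 libraries where miR158 was higher.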

How the data were processed

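Small RNA reads of 18 libraries were analysed. Per the submitters' processing notes, the authors used FastQC, cutadapt, DESeq 1.2, DESeq2 and the genome build TAIR10. Per the file headers, miRProf matched reads to plant miRBase mature sequences without mismatches and combined organisms and variants. The deposited read numbers stand among family-name lines, so their unit is recorded as other than counts, and limma was used in place of a count test. In the authors' deposited comparison tables, log2 fold changes and p-values with adjusted p-values were read for miR158.

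Both runs of a library were summed. Reads were scaled per 1000000 miRNA reads with TMM factors computed from their definition (trims 0.3 and 0.05), and log2(CPM + 1) was tested with limma 3.58.1 in R 4.3.3 (trend, robust), within each library type, with Benjamini-Hochberg adjustment over all families or sequences tested. Features needed the equivalent of 10 reads at the median depth in 3 libraries and 15 in all. Levels in the text are per 1000000 miRNA reads without TMM factors. Shares were tested with exact permutations. The fit was tested on simulated data. RNAfold 2.7.2 folded the RefSeq hairpins. Of 476 sequences, 461 had as many genome matches in TAIR10.1 as deposited, so it was taken as the authors' build. Members, lists and tests were chosen with earlier results of these data known. All members, the PPR-linked families, the 5 other families most abundant in AGO1 libraries and the 3 most alike were named. Tested alternatives were other scalings, pseudocount, filter, voom, single runs, a replicate block, a joint fit and each library left out.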

Additional observations from a re-analysis of the deposited data

How the results depend on the processing

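Scaling to genome-matched reads changed the family results against untreated leaves: in total libraries 2.07 for Alternaria and 1.54 for mock (reversed from -0.08), and for the AGO1 change minus the total change -2.30 (adjusted p = 0.000677) and -1.86 (adjusted p = 0.0107). The mean over 3 treatments of the ratio of AGO1 to total level of miR158 was 43.7 on that scale, against 2.53 per miRNA read. The AGO1 change minus the total change for Alternaria against mock, 0.01, turned to -0.18 with plain totals, -0.43 with genome-matched scaling, -0.073 with the first run and -0.12 with the second, none of them called. For miR158b, 20 nt, mock against untreated in total libraries, limma-voom gave 0.025. Calls of miR158 sequences in total libraries, Alternaria against untreated, went from 1 to 0 with plain totals of miRNA reads and with no filter. Tests with genome-matched scaling are given for the family alone. Other settings that kept all libraries, apart from the block below, changed no direction and no call, but moved sizes of family changes that were not called. Median-of-ratios factors moved the AGO1 change minus the total change from -0.59 to -0.00015 (Alternaria against untreated) and from -0.60 to -0.15 (mock against untreated). In total libraries, the change from mock to Alternaria went from 0.37 to 0.055 with no filter and 0.14 with all 18 libraries in 1 fit, and that from untreated to Alternaria from 0.30 to 0.023 and 0.12.

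Leaving out 1 library at a time moved the family log2 change of total libraries from 0.18 to 0.52 (Alternaria against mock), from -0.11 to 0.42 (Alternaria against untreated) and from -0.22 to 0.12 (mock against untreated), and that of AGO1 libraries from 0.14 to 0.36, from -0.44 to 0.088 and from -0.77 to -0.14. The AGO1 change minus the total change ran from -0.16 to 0.16, from -0.73 to -0.04 and from -0.75 to -0.05. None of these was called. The number of miR158 sequences called ran from 0 to 1 in total libraries (Alternaria against mock, against untreated), and in AGO1 libraries from 0 to 3 (Alternaria against untreated) and 0 to 1 (mock against untreated). The sequence log2 changes whose sign turned ran, for the 20-nt miR158a-3p, from -0.21 to 0.16 (mock against untreated, total) and from -0.23 to 0.20 (Alternaria against untreated, AGO1); for the 20-nt miR158b, from -0.19 to 0.084 (mock against untreated, total), from -0.063 to 0.37 (Alternaria against untreated, AGO1) and from -0.35 to 0.046 (mock against untreated, AGO1); and for miR158a-5p, from -0.36 to 0.12 (Alternaria against mock, total), from -0.0068 to 0.60 (Alternaria against untreated, AGO1) and from -0.30 to 0.28 (mock against untreated, AGO1). The F of the 20-nt share ran from 6.51 to 48.5 in total and from 1.89 to 12.4 in AGO1 libraries, a set of alternatives chosen after seeing the data. The difference of that share between mock and untreated AGO1 libraries ran from -0.092 to 4.42 points.

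Replicate numbers did not pair the libraries: deviations of same-numbered libraries correlated from -0.24 to 0.43 in total and from -0.26 to 0.15 in AGO1 libraries, with 2 of 9 pairs over 0.1 in each. With the replicate block, the exact permutation test of the 20-nt share over 3 treatments in total libraries kept its F of 11.1 and gave an adjusted p of 0.111; no other call changed with the block. Depth limits the forms of a few reads: a 0 allows up to 28 reads in a library, and intervals between libraries cover counting and replicate spread together. PCR duplicates were not marked.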
